A study of Mus musculus with 10 samples.

Results

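The genes described here encode 7 subunits of the GABA-A receptor, Gabra2, Gabra3, Gabra4, Gabra5, Gabrb1, Gabrb2 and Gabrd, measured in mouse hippocampus on Affymetrix Mouse430_2 arrays. They were chosen by symbol: every probe set that the platform annotation gives to one of these names was taken, which came to 21 of 45037 probe sets that are not controls. Of these 21, 18 were bright enough to be tested, among 27022 tested probe sets in all, and each gene kept at least 1. Each array held a pool of 3 to 4 hippocampi from mice aged 3 weeks, 14 wild-type and 20 A-CREB mice in all, and each of the 5 groups had 2 arrays, numbered replicate 1 and replicate 2. Wild-type mice, labelled C57BL6 F1/J where a strain is given, received saline or kainate at 14 mg/kg. Mice labelled TetO-A-CREB-95 C57BL6 F1/J received saline, kainate at 14 mg/kg or kainate at 18 mg/kg, and there was no wild-type group at 18 mg/kg. A-CREB is a dominant-negative inhibitor of the transcription factor CREB, here in 1 transgenic line under a tetracycline-operator promoter. The labels name neither the driver line that switches this promoter on nor the cells it acts in, and they leave out the interval between injection and dissection. Kainate is a glutamate receptor agonist that provokes seizures. The stated question was how A-CREB affects basal and kainate-induced expression.

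GABA-A receptors are chloride channels opened by GABA, the main inhibitory transmitter of the adult brain. Each receptor is a pentamer, usually of alpha and beta subunits joined by a gamma or a delta subunit, and GABA binds where a beta meets an alpha subunit. The alpha subunit sets much of the pharmacology and place of the receptor, while the delta subunit marks receptors outside synapses that carry a tonic current, chiefly in dentate granule cells of the hippocampus.

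The RefSeq promoter table (GRCm38.p6, 250 bases before to 50 after a start) held 10 windows for 6 of the 7 genes, and Gabrd had no entry. Because CREB binds the cAMP response element, the windows were searched on both strands for its full palindrome TGACGTCA and for the shorter core TGACG, read CGTCA on the opposite strand, which the palindrome contains. The full palindrome was in 0 of the 10 windows and in 1.79% of all 32851 windows. The shorter core was in 1 of the 10 windows and in 20.8% of all windows. That window belonged to Gabrb2, and the stretch around the core is shown with the core in capitals, from the plus strand at chr11:42420429-42420453, where the core begins 1 base before the start.
Gabrb2: gggtcaggagCGTCAcagcgccaga
A match of letters is a description of the window and not a binding site, and the absence of a match says only that these letters were not in these windows.

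Immediate early genes separated the saline from the kainate arrays. Npas4, an activity-induced transcription factor, had signals of 148 to 251 on the 4 saline arrays and of 8526 to 16278 on the 6 kainate arrays. Fos, another immediate early gene, ran from 1417 to 2293 after saline and from 15194 to 20356 after kainate. Signals are MAS5 intensities on a linear scale, with every array scaled to the same trimmed mean. The median signal nevertheless lay between 94.9 and 106 on the arrays of replicate 1 and between 135 and 152 on those of replicate 2. The difference between replicates 1 and 2 ran alike in all groups, with correlations of 0.51 to 0.63 in 10 of 10 pairs of groups, so same-numbered arrays were treated as pairs. Log2 differences are on the log2(signal + 22) scale and were tested with limma across all tested probe sets, called at a Benjamini-Hochberg adjusted p under 0.05, without and with the replicate number as a block.

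No subunit probe set passed in any of the 9 comparisons, without or with the block, and none differed by more than 1 on the log2 scale. The smallest adjusted p of a subunit over the comparisons was 0.393, from limma with the block, for Gabrb1 probe set 1443205_at in the mean response to kainate. In wild-type mice 0 of 18 passed against a background of 0.0629% of all tested probe sets called (0.337% with the block). In A-CREB mice at 14 mg/kg 0 of 18 passed against 0.174% (0.729% with the block). In A-CREB mice at 18 mg/kg 0 of 18 passed against 0.0703% (0.359% with the block). With so few probe sets called anywhere, 0 of 18 is near the background and is not a result about the subunits. At an unadjusted p under 0.05 limma without the block had 0 subunit probe sets in each kainate response, and 729 (2.7%), 1034 (3.83%) and 670 (2.48%) among all tested. With the block, 0 subunit probe sets had an unadjusted p under 0.05 in wild-type mice (7.78% of all tested) and 0 in A-CREB mice at 14 mg/kg (9.55%). At 18 mg/kg 3 of 18 had one with the block (7.91% of all tested), Gabra2 1455444_at, Gabrb1 1443205_at and Gabrb2 1428203_at. Between the 18 and the 14 mg/kg arrays of A-CREB mice 0 of 18 subunit probe sets passed in limma, as did 0 of 27022 in all (0% also with the block), where 129 (0.477%) had an unadjusted p under 0.05, of which 0 were subunits (2.51% with the block, again with 0 subunits).

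**Figure D1:**
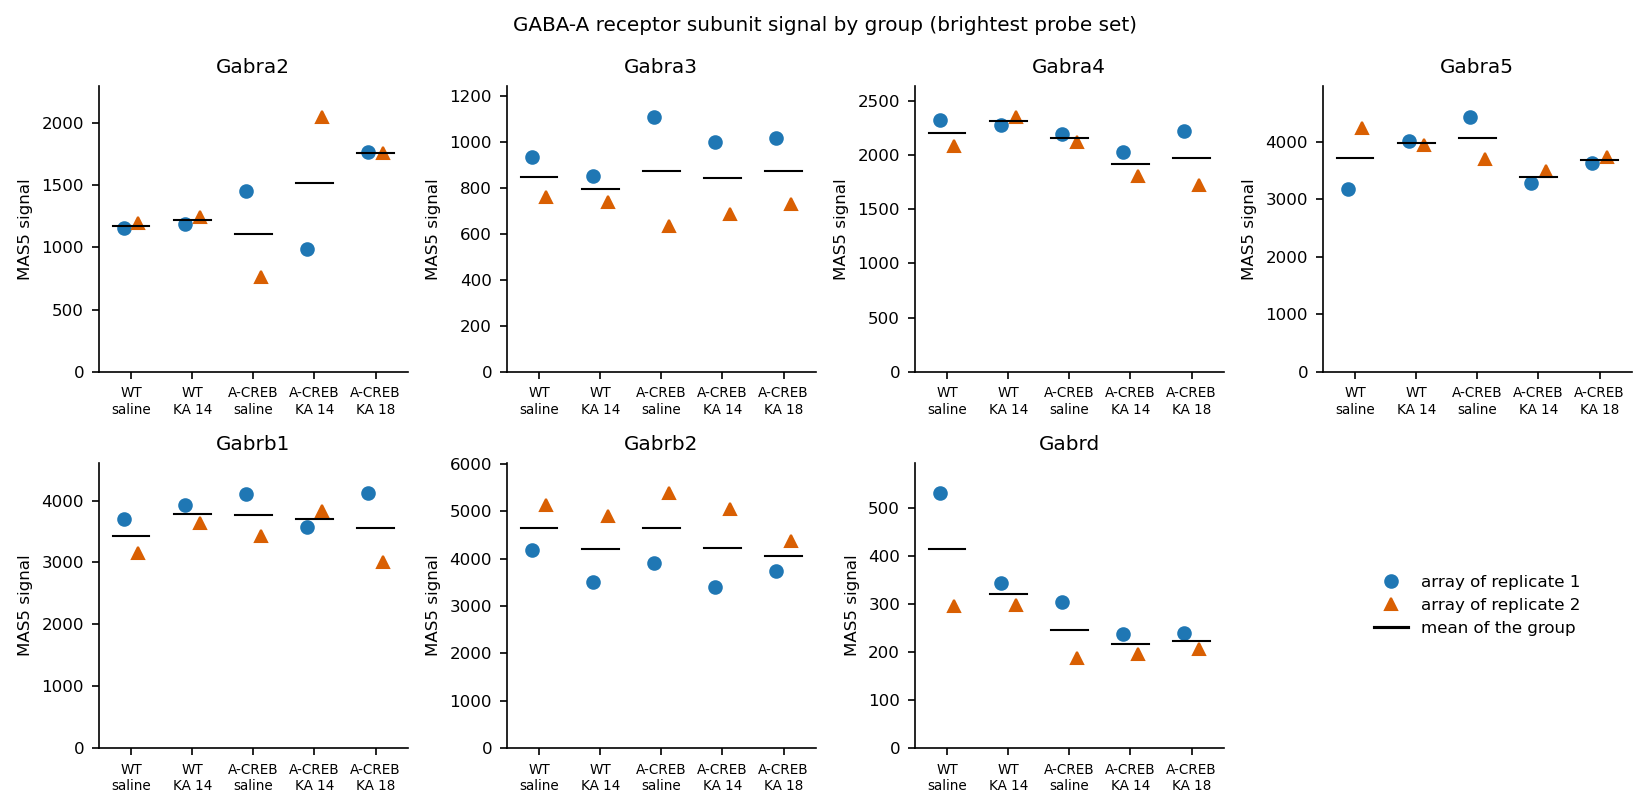
MAS5 signal of the brightest probe set of each subunit gene in the 5 groups (WT wild type, KA kainate with its dose in mg/kg); circles are arrays of replicate 1, triangles arrays of replicate 2, lines the mean of the 2 arrays. Gabrd ran from 297 to 531 in wild-type arrays and from 187 to 305 in A-CREB arrays, while Gabra5 stayed between 3186 and 4438 over all 10 arrays.

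Among the alpha subunits, Gabra2 encodes the subunit enriched at axon initial segments of hippocampal pyramidal cells. Its brightest probe set, 1455444_at, had signals of 1153 and 1193 in wild-type saline arrays and of 1189 and 1243 after kainate. In A-CREB mice it had 1452 and 760 after saline, 983 and 2048 at 14 mg/kg, and 1766 and 1754 at 18 mg/kg. Both arrays at 18 mg/kg lay above both A-CREB saline arrays, whereas the 14 mg/kg arrays spanned them. The difference at 18 mg/kg was 0.73 (SE 0.35, 95% interval -0.06 to 1.53, n = 2 a group), with a limma adjusted p = 1, and with the block the interval was 0.04 to 1.42 and adjusted p = 0.617. Leaving out 1 array moved this difference between 0.27 and 1.19. It has no wild-type counterpart, since no wild-type mice received 18 mg/kg. At 14 mg/kg the response was 0.05 in wild-type mice and 0.43 (95% interval -0.37 to 1.22) in A-CREB mice. These 14 mg/kg responses differed by 0.375 (-0.749 to 1.499), so a difference between the genotypes was not shown.

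The other probe sets of Gabra2 had wider spreads. Probe set 1421738_at ran from 409 to 1739 and 1443865_at from 289 to 994 over the 10 arrays. Their log2 signals followed that of 1455444_at over the 10 arrays with a Pearson r of 0.75 and 0.94 after the mean of each replicate number was removed, as a description, since the arrays share their batches and scaling. The A-CREB response at 18 mg/kg was 0.45 at 1421738_at and 0.69 at 1443865_at, and at both the intervals included 0. The 2 wild-type saline arrays had 1436 and 409 at 1421738_at, so that much of its range lay within 1 group. The dim probe set 1449807_x_at ran from 24.6 to 158 and did not follow the others (r = -0.27 with 1455444_at). Probe set 1420299_at, at 1.11 to 21.4, was too dim to be tested.

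Gabra3 encodes an alpha subunit that is more abundant in the young forebrain than in the adult hippocampus. Its probe set 1436957_at had signals of 937 and 760 after saline and 855 and 739 after kainate in wild-type mice. The A-CREB arrays had 1112 and 634 after saline, 1003 and 688 at 14 mg/kg and 1020 and 731 at 18 mg/kg. In all 5 groups replicate 2 lay below replicate 1, and no group stood apart from another. The dimmer probe set 1421263_at had 333 and 198 in wild-type saline arrays and 177 and 222 after kainate. Its A-CREB signals were 280 and 217 after saline, 323 and 324 at 14 mg/kg, and 349 and 320 at 18 mg/kg. At 14 mg/kg both A-CREB arrays lay above both wild-type arrays at this probe set. That genotype difference was 0.65 (SE 0.28, 95% interval 0.01 to 1.28, n = 2 a group; limma adjusted p = 1, and with the block 0.12 to 1.18 and adjusted p = 1). The same comparison at 1436957_at was 0.06 (-0.62 to 0.74) and the difference between the 2 probe sets was not tested. The responses of the genotypes at 1421263_at, -0.34 in wild-type and 0.36 in A-CREB mice, differed by 0.71 (-0.19 to 1.60; limma adjusted p = 1).

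Gabra4 encodes an alpha subunit insensitive to classical benzodiazepines, which pairs with the delta subunit in dentate granule cells. At 1433707_at the wild-type arrays had 2328 and 2084 after saline and 2279 and 2355 after kainate. The A-CREB arrays had 2191 and 2123 after saline, 2030 and 1804 at 14 mg/kg, and 2221 and 1728 at 18 mg/kg. At 14 mg/kg the A-CREB arrays lay below the wild-type arrays, by -0.27 (SE 0.17, -0.66 to 0.12; limma adjusted p = 1). On these 14 mg/kg arrays the summed signal of dentate granule cell markers was 12062 and 11609 in wild-type and 9493 and 9784 in A-CREB mice. Its part in the Gabra4 difference was not tested. Over the 3 kainate responses the 95% intervals at this probe set stayed between -0.56 and 0.46, that is between 0.677-fold and 1.38-fold.

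The second Gabra4 probe set, 1429330_at, had 1230 and 1345 in wild-type saline arrays and 1369 and 1981 after kainate. In A-CREB mice the signals were 1088 and 1864 after saline, 1103 and 1611 at 14 mg/kg, and 926 and 1579 at 18 mg/kg. Both wild-type kainate arrays lay above both wild-type saline arrays, by 0.35 (SE 0.34, -0.41 to 1.11; limma adjusted p = 1, and adjusted p = 0.675 with the block). The highest value, 1981, came from the wild-type kainate array of replicate 2, and leaving arrays out moved the difference between 0.09 and 0.61. On that same array the summed signal of the striatal markers, 7 of 9 listed with a probe set and all 7 tested, was 15742. It was 4244 to 4870 on the arrays of replicate 1 and 5379 to 6926 on the other arrays of replicate 2. The same array also had the highest signal at 1433707_at, 2355. The part of striatal tissue in the Gabra4 values was not tested.

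Gabra5 encodes the alpha subunit of receptors that lie largely outside synapses on hippocampal pyramidal cells. Its 1 probe set, 1433602_at, had 3186 and 4243 after saline and 4010 and 3949 after kainate in wild-type mice. A-CREB arrays gave 4438 and 3695 after saline, 3276 and 3492 at 14 mg/kg, and 3630 and 3728 at 18 mg/kg. Both A-CREB arrays at 14 mg/kg lay below both A-CREB saline arrays, and the difference was -0.26 (SE 0.18, -0.66 to 0.14; limma adjusted p = 1, and adjusted p = 0.649 with the block). The other responses were 0.11 in wild-type mice and -0.14 at 18 mg/kg, and the 3 intervals together reached from 0.633-fold to 1.43-fold. On the A-CREB kainate arrays the summed signal of the markers of CA pyramidal cells, 8 of 9 listed and all 8 tested, was 10618 to 11441, against 12318 to 13241 on the other arrays. The mean log2 signal of the same markers was 9.80 to 9.92 on the A-CREB kainate arrays and 9.91 to 10.12 on the others, which overlap. Its part in the Gabra5 values was not tested. In bulk tissue, fewer cells of a type and less RNA per cell cannot be told apart.

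**Figure D2:**
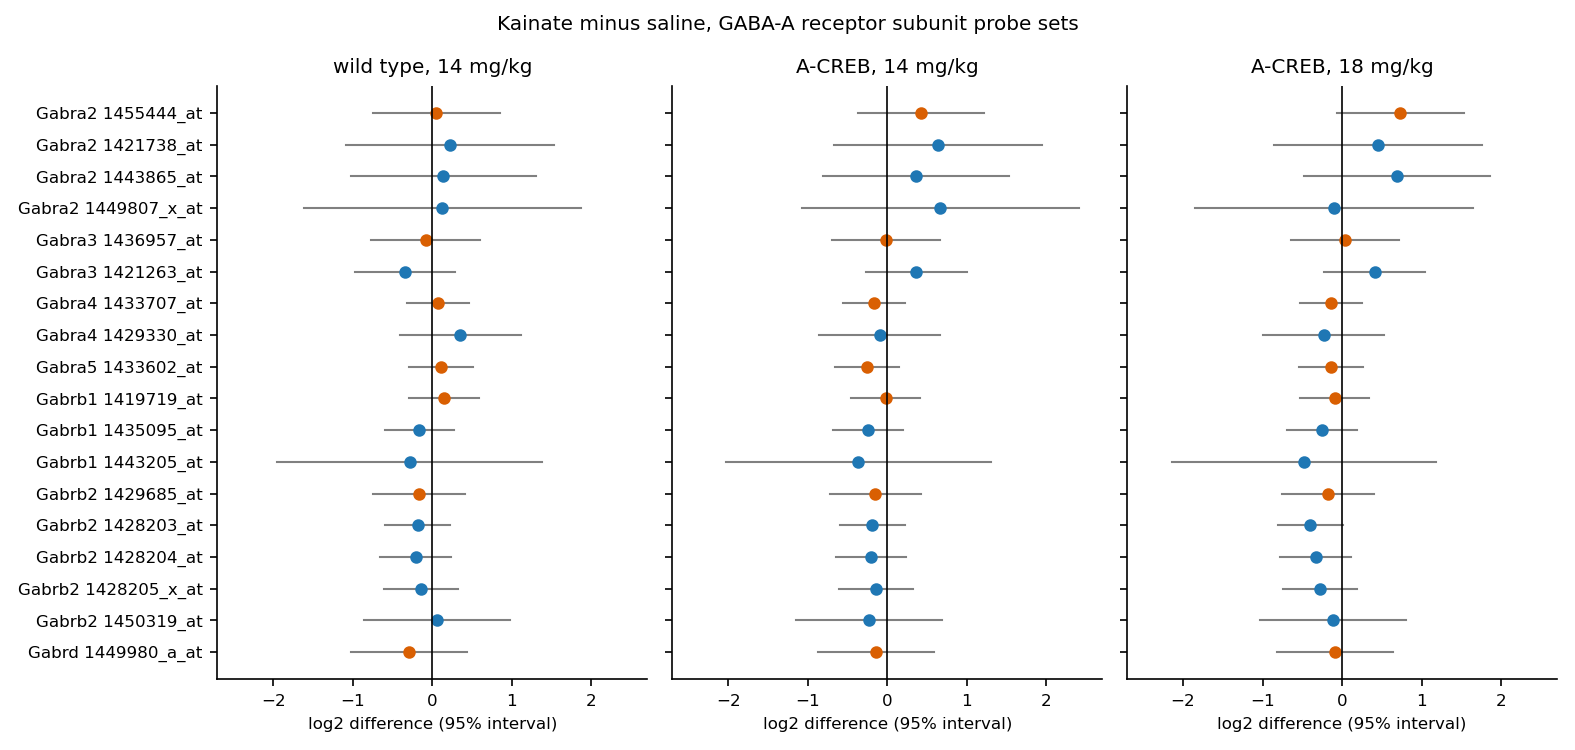
Log2 difference, kainate minus saline, with its 95% interval from limma for the 18 tested subunit probe sets (2 arrays a group); orange points are the brightest probe set of a gene, blue points the others. In every panel all intervals, from the fit without the block, include 0. With the block those of Gabra2 1455444_at, Gabrb1 1443205_at and Gabrb2 1428203_at at 18 mg/kg exclude it, with no call after adjustment; the highest point is Gabra2 1455444_at at 18 mg/kg, at 0.73.

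Of the beta subunits, Gabrb1 encodes one that is less widely expressed than its paralogs. Probe set 1419719_at ran from 3001 to 4119 over the 10 arrays. Its kainate responses were 0.15 in wild-type mice, -0.02 in A-CREB mice at 14 mg/kg and -0.09 at 18 mg/kg, with intervals that stayed between -0.53 and 0.58. Probe set 1435095_at had 2442 and 2249 after saline and 2101 and 2083 after kainate in wild-type mice. Among A-CREB arrays it had 2718 and 2535 after saline, 1956 and 2519 at 14 mg/kg, and 2543 and 1895 at 18 mg/kg. The 14 mg/kg array was the lower in 4 of 4 same-numbered pairs, a pattern that 13.8% of all tested probe sets had, and the mean response was -0.20 (SE 0.14, -0.51 to 0.11; limma adjusted p = 1).

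The third Gabrb1 probe set, 1443205_at, separated the replicate numbers and not the groups. It had 980 to 1970 on the 5 arrays of replicate 1 and 2679 to 3866 on those of replicate 2, with no overlap. Its SE for a comparison of 2 groups was accordingly 0.74 without the block and 0.21 with it, and the interval of the A-CREB response at 18 mg/kg, -0.48, narrowed from -2.14 to 1.18 to -0.95 to -0.01 (adjusted p = 0.621, limma with the block). The fourth, 1443834_at, at 2.37 to 98.3, was too dim to be tested.

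Gabrb2 encodes a beta subunit of the most common receptor type of the adult brain, and it has 5 probe sets, all tested. The brightest, 1429685_at, had 4192 and 5122 after saline and 3503 and 4891 after kainate in wild-type mice. In A-CREB mice its values were 3913 and 5383 after saline, 3395 and 5048 at 14 mg/kg, and 3740 and 4376 at 18 mg/kg. Replicate 2 was the higher in 5 of 5 groups, and each kainate array lay below the saline array of its own genotype and number. At 14 mg/kg that made 4 of 4 same-numbered pairs, a pattern that 13.8% of all tested probe sets had. The 18 mg/kg pairs reuse the A-CREB saline arrays. The responses were -0.16, -0.15 and -0.18, and their intervals reached from 0.591-fold to 1.35-fold.

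Probe set 1428203_at had 2822 and 2632 after saline and 2321 and 2471 after kainate in wild-type mice. The A-CREB values were 3269 and 2707 after saline, 2482 and 2748 at 14 mg/kg, and 2568 and 1972 at 18 mg/kg. Kainate arrays lay below saline arrays without overlap in wild-type mice and at 18 mg/kg, not at 14 mg/kg in A-CREB mice. The difference at 18 mg/kg was -0.40 (SE 0.18, -0.81 to 0.01; limma adjusted p = 1, and with the block -0.73 to -0.06 and adjusted p = 0.567), or 0.758-fold. At 1428204_at, whose values ran from 1632 to 2624, the difference at 18 mg/kg was -0.33, and at 1428205_x_at, from 1456 to 2111, it was -0.27. Over the 10 arrays 1428203_at and 1428204_at had r = 0.94 after the means of the replicate numbers were removed, as a description. The annotation gives 1428203_at, 1428204_at and 1428205_x_at the same source sequence, so they are not taken as independent measurements of the gene. The fifth, 1450319_at, had 983 and 327 in wild-type saline arrays, while all other arrays lay between 502 and 873.

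Read over all 18 probe sets, the responses were small and uneven in sign. The median was -0.02 in wild-type mice, where that of all tested probe sets was -0.04. It was -0.14 against -0.03 in A-CREB mice at 14 mg/kg and -0.13 against -0.00 at 18 mg/kg, with 5 of 18 above 0 in both. Above 0 in all tested were 45.7% at 14 mg/kg and 49.7% at 18 mg/kg, and in wild-type mice 9 of 18 subunit probe sets and 43.7% of all. The 2 A-CREB comparisons share their saline arrays. The 18 probe sets come from 7 genes and are not separate measurements. Every tested probe set of Gabra4, Gabra5, Gabrb1, Gabrb2 and Gabrd lay below 0 in both A-CREB comparisons. The values above 0 came from Gabra2 and Gabra3. The counts weigh a gene by its number of probe sets, Gabrb2 most. Arrays did not overlap between kainate and saline at 4 of 18 probe sets in wild-type mice (23.9% of all tested), at 5 in A-CREB mice at 14 mg/kg (27.8%) and at 5 at 18 mg/kg (25%), shares near the background. Intervals lay within -1 to 1 at 12 of 18 in wild-type mice (59% of all tested), at 12 in A-CREB mice at 14 mg/kg (57.3%) and at 11 at 18 mg/kg (58.8%), so for the other probe sets the interval still held a change of that size.

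Gabrd, the delta subunit of tonic inhibition, was the subunit gene with the lowest p in the genotype comparison after saline and in the mean over saline and 14 mg/kg, while at 14 mg/kg alone this was Gabra3. Probe set 1449980_a_at had 531 and 297 in wild-type mice after saline and 344 and 298 after kainate. For A-CREB mice they were 305 and 187 after saline, 238 and 196 at 14 mg/kg, and 240 and 208 at 18 mg/kg. The A-CREB array was the lower in 4 of 4 same-numbered pairs, as at 7.68% of all tested probe sets. The arrays overlapped after saline, where the A-CREB array of replicate 1, 305, lay above the wild-type array of replicate 2, 297, and they did not overlap at 14 mg/kg.

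The Gabrd genotype difference was -0.68 after saline (SE 0.33, -1.41 to 0.05; limma adjusted p = 1, and with the block -1.17 to -0.20 and adjusted p = 0.961). At 14 mg/kg it was -0.53 (-1.26 to 0.21; limma adjusted p = 1, and with the block -1.01 to -0.04 and adjusted p = 1). The mean of both was -0.60 (SE 0.23, -1.12 to -0.09), or 0.658-fold, with a limma adjusted p = 1. With the block the interval narrowed to -0.95 to -0.26 and adjusted p = 0.672, so it did not pass either way. Leaving out 1 array moved the mean difference between -0.80 and -0.41. The response to 14 mg/kg was -0.30 in wild-type and -0.14 in A-CREB mice, and these differed by 0.16 (-0.88 to 1.19; limma adjusted p = 1). A second Gabrd probe set, 1457763_at, lay between 7.68 and 140 and was too dim to be tested.

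Marker levels of several cell types were set beside Gabrd. The summed signal of dentate granule cell markers, 8 of 8 listed and tested, was 10590 and 11718 in wild-type and 10693 and 11200 in A-CREB mice after saline, groups that overlap. At 14 mg/kg it was 12062 and 11609 in wild-type and 9493 and 9784 in A-CREB mice, which do not overlap. At 18 mg/kg it was 10417 and 9220. Thalamic markers, 5 of 5, a tissue that also expresses Gabrd, summed to 2268 and 2197 in wild-type and 1948 and 1786 in A-CREB mice after saline. At 14 mg/kg they summed to 2162 and 2308 in wild-type and to 2262 and 2086 in A-CREB mice. Microglial markers, 9 of 10, summed to 15227 to 18108 on wild-type arrays and to 17899 to 25432 on A-CREB arrays. Striatal markers, 7 of 9, summed to 4254 and 6926 in wild-type and 4244 and 5691 in A-CREB mice after saline. At 14 mg/kg the striatal sums were 4633 and 15742 in wild-type and 4870 and 5857 in A-CREB mice. The part of these in the Gabrd values was not tested.

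**Figure D3:**
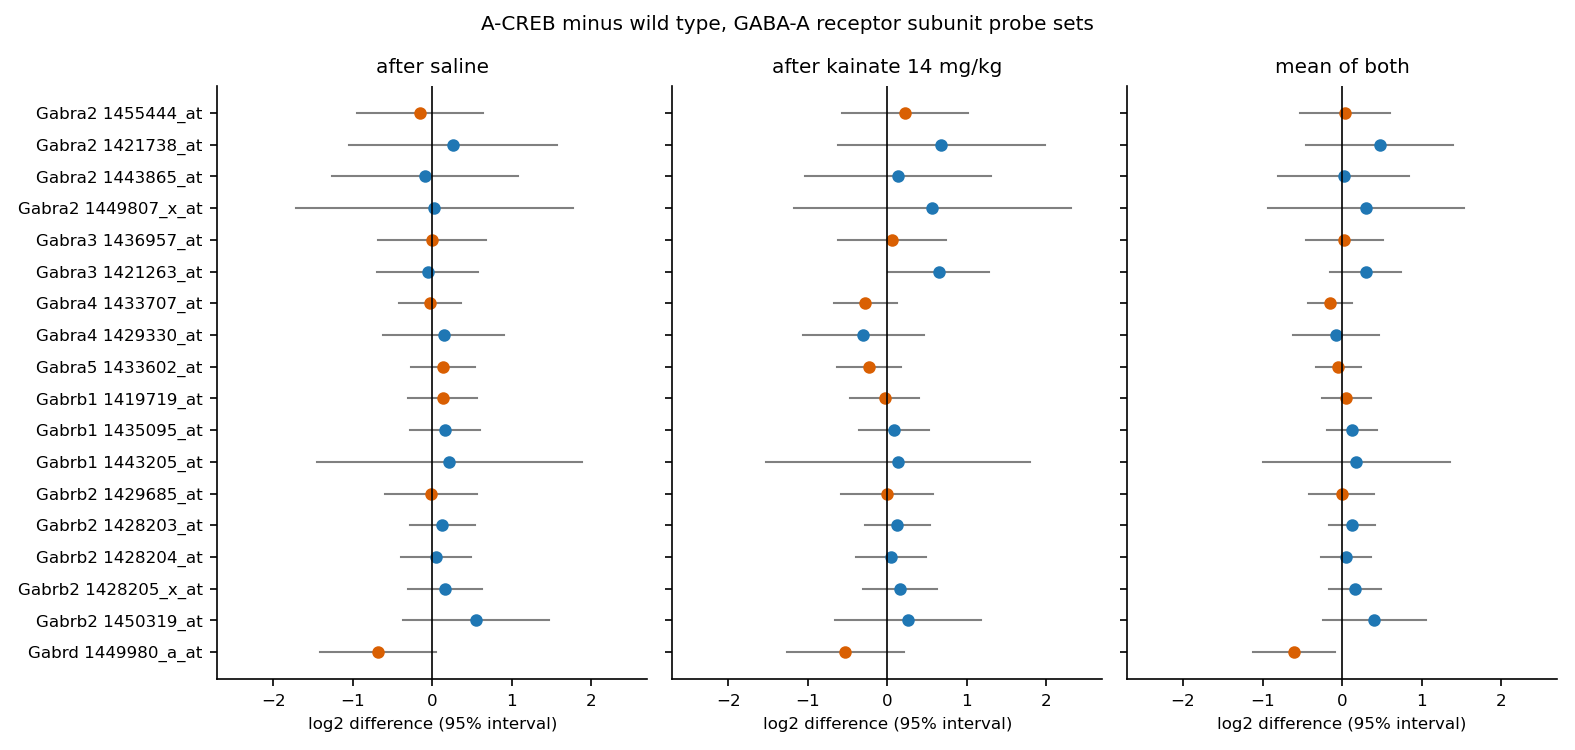
Log2 difference, A-CREB minus wild type, with its 95% interval from limma for the 18 tested subunit probe sets, after saline, after 14 mg/kg and as the mean of both (2 arrays a group); orange points are the brightest probe set of a gene. Intervals that exclude 0 in this fit, without the block, are those of Gabra3 1421263_at after 14 mg/kg (0.65) and of Gabrd 1449980_a_at in the mean (-0.60), and neither passed after adjustment. With the block those of Gabrd after saline and after 14 mg/kg exclude 0 too.

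Among the other subunits the genotype differences were of both signs. After saline 0 of 18 subunit probe sets passed, as did 0 of all 27022 (0.0037% with the block), and at an unadjusted p under 0.05 limma had 350 (1.3%) in all and 0 subunits (5.07% with the block, with 1 subunit, Gabrd 1449980_a_at). At 14 mg/kg 0 of 18 passed, with 0 of all (0.0037% with the block), and 280 (1.04%) in all had an unadjusted p under 0.05, of which 1 was a subunit, Gabra3 1421263_at (4.16% with the block, with 2 subunits, the same and Gabrd 1449980_a_at). In the mean of both, 0 of 18 passed against 0.0037% (0.0074% with the block), and 475 (1.76%) in all had an unadjusted p under 0.05, of which 1 was a subunit, Gabrd 1449980_a_at (5.83% with the block, with 1 subunit, the same). The genotypes' responses to 14 mg/kg differed at 0 of 18 and at 0 of all, and 159 (0.588%) in all had an unadjusted p under 0.05, of which 0 were subunits (3.04% with the block, with 0 subunits). In the mean response over both genotypes 0 of 18 passed against 0.414% (1.51% with the block), and 1536 (5.68%) in all had an unadjusted p under 0.05, again with 0 subunits (13.2% with the block, with 0 subunits). Genotype arrays did not overlap at 1 of 18 subunit probe sets after saline (21.2% of all tested) and at 6 of 18 at 14 mg/kg (21%). The median genotype difference was 0.09 after saline, against -0.01 for all tested, and 0.10 at 14 mg/kg, against 0.00. The brightest Gabrb2 probe set, 1429685_at, had genotype differences of -0.01 after saline and 0.00 at 14 mg/kg, with intervals that reached from 0.664-fold to 1.49-fold.

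Subunit probe sets were called for the replicate number. In the limma fit with a term for each group and for the number, 6 of 18 subunit probe sets differed between replicate 2 and replicate 1, or 33.3%, and so did 33.4% of all tested, so the subunits were at the background. The largest difference was that of Gabrb1 1443205_at, 1.36 higher on replicate 2 (SE 0.14, adjusted p = 8.56e-05), or 2.57-fold, in 5 of 5 groups. Gabra2 1449807_x_at was 1.23 higher, Gabra4 1429330_at 0.54 higher and Gabrb2 1429685_at 0.40 higher on replicate 2. Gabra3 1436957_at, at -0.46, and Gabrd 1449980_a_at, at -0.42, were lower on replicate 2, each in 5 of 5 groups. For Gabra2, Gabra3, Gabra4, Gabrb1 and Gabrb2 the other tested probe sets of the same gene did not pass for the number. Opposite to the dim 1449807_x_at, Gabra2 1421738_at and 1443865_at were at -0.71 and -0.63 (limma adjusted p = 0.0512 and 0.0567). Gabra2 1455444_at was at 0.05. The labels do not say what the number marks.

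**Figure D4:**
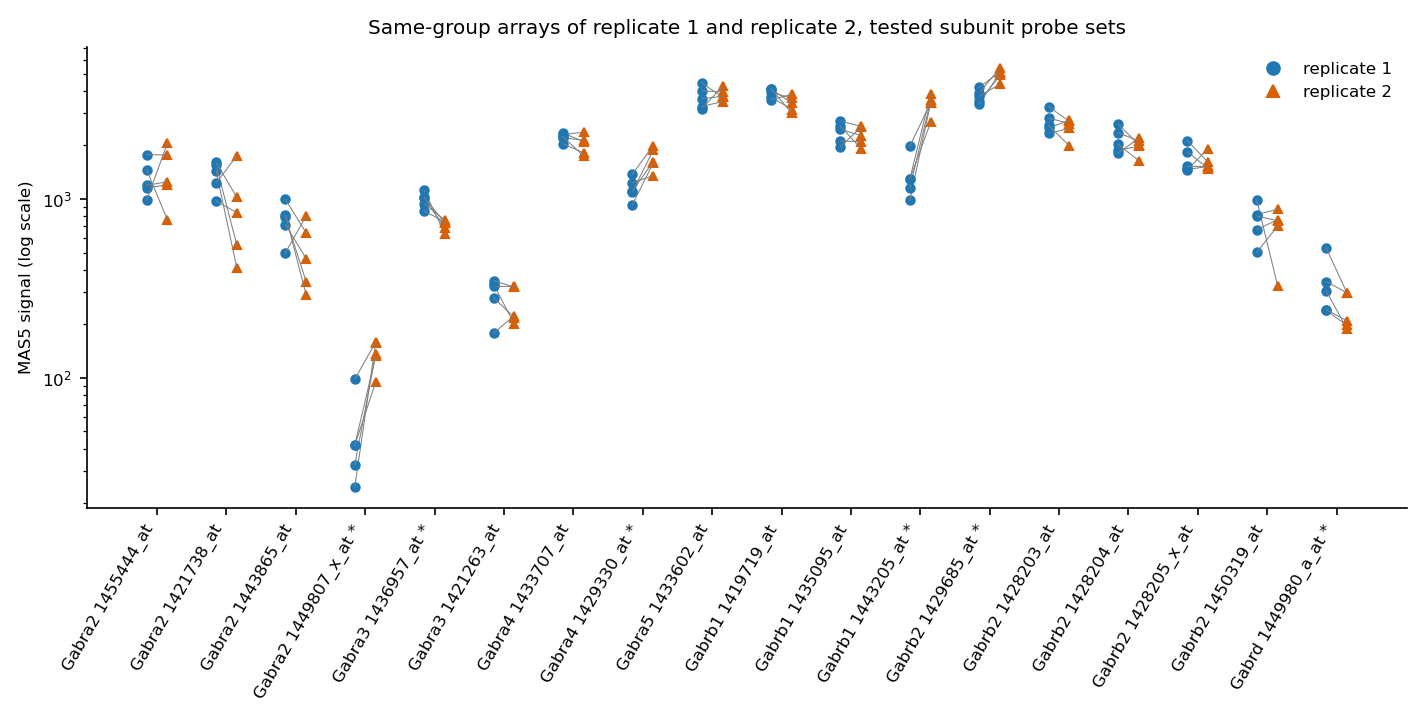
MAS5 signal (log scale) of the 18 tested subunit probe sets, with the 5 arrays of replicate 1 as circles and those of replicate 2 as triangles, joined within a group; asterisks mark the 6 probe sets that differed between the numbers in limma. For Gabrb1 1443205_at the circles end at 1970 and the triangles begin at 2679.

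Genes with the most similar profile over the 10 arrays were named by Pearson's r of log2 signal after the means of the replicate numbers were removed, as a description over arrays that share scaling and groups. They were Rian (0.96) and Ppp6r3 (0.88) for Gabra2, and Kcng4 (0.95) and Tob2 (0.93) for Gabra3. Cdk17 (0.96) and Slc2a13 (0.95) were nearest to Gabra4, and Atp5a1 (0.94) and Usp48 (0.93) to Gabra5. Pnisr (0.95) and Cul3 (0.91) were nearest to Gabrb1, Kcna2 (0.96) and Yod1 (0.95) to Gabrb2, and Mtcl1 (0.96) and Twf2 (0.94) to Gabrd. No subunit was among the nearest genes of another. In the RefSeq gene order (GRCm38.p6), Gabra4 and Gabrb1 are neighbours on chromosome 5 whose gene models overlap by 388 bases, and Gabra2 lies beyond Cox7b2, with Gabrg1 next to it. With the means of the replicate numbers removed, the log2 signals of the brightest probe sets of Gabra4 and Gabrb1 had r = 0.29. Those of Gabra2 and Gabra4 had r = -0.49, likewise over the 10 arrays. Among all pairs of the subunit genes this was the lowest r, and the highest was 0.56, for Gabra4 and Gabrd.

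Of 53 listed genes of GABA signalling around these subunits, 44 had a probe set and 39 were tested, and 0 rose and 0 fell in each of the 9 comparisons without the block. With the block 1 passed, in 1 comparison: Car7, a neuronal carbonic anhydrase that supplies the bicarbonate GABA-A channels also conduct, fell by 0.99 in wild-type mice after kainate (adjusted p = 0.0433 in limma with the block, 0.514 without). With the block 0.337% of all tested probe sets were called in that comparison. The Car7 value in A-CREB mice at 14 mg/kg was 0.10, and the responses differed by 1.09 (adjusted p = 1, limma without the block). Its difference of A-CREB minus wild type was -0.62 after saline and 0.47 at 14 mg/kg, neither called. The difference in response thus included a lower A-CREB saline level. Of the other receptor subunits on the list, 8 of 12 had a probe set and 4 were tested, Gabrg1, Gabrg3, Gabre and Gabrp. Gabrg1, which encodes a gamma subunit, ran from 465 to 850 on the 10 arrays. Gabra6, the subunit of cerebellar granule cells, lay between 13.6 and 79.9 and was not tested. Among the 22 tested genes of receptor clustering and trafficking, 0 passed in any comparison, without or with the block. Gphn, the scaffold gephyrin of inhibitory synapses, had the smallest p there in the A-CREB response at 18 mg/kg, with a value of -0.46 (SE 0.16; limma adjusted p = 1). Its response was -0.38 in A-CREB mice at 14 mg/kg and -0.01 in wild-type mice. A-CREB minus wild type, Gphn was at 0.36 after saline and -0.01 at 14 mg/kg.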

How the data were processed

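Per the labels, RNA of pooled hippocampi was hybridised to 10 arrays in 5 groups of 2. The deposited intensity values are MAS5 signals, made with MAS5 in GCOS per the submitters' processing notes, of unstated version. In the values themselves the 2% trimmed mean of every array was 500.002 to 500.003, so they had been scaled to a common mean, and no further normalization was applied. This scaling left the median signal different between the replicate numbers.

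Signals were taken as log2(signal + 22), with the 20th percentile of the whole table as pseudocount, and fitted with limma 3.58.1 in R 4.3.3 with an intensity trend, all 10 arrays in 1 fit with 1 term a group. The pseudocount lowers the fold of dim probe sets. Tested were the 27022 probe sets in the upper 60% by mean. Tests are two-sided with Benjamini-Hochberg adjustment over all of them. Nothing says that the 2 pools of a group were prepared apart, so p-values measure the spread between these arrays. The replicate number was the block in a second fit, because the replicate 2 minus replicate 1 difference correlated between groups at 0.51 or more in 10 of 10 pairs of groups; the pairing comes from the data and the shared number in the titles. The fit was also run on simulated data with independent normal noise and a shift by replicate number. Since that builds in the fitted model, it cannot show how the fit performs on these arrays.

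Every probe set of the 7 genes is named or counted. Of the other lists, genes past the threshold or with a smallest p are named, each by its brightest probe set, and for each subunit gene the 2 nearest genes by correlation. The gene lists and members were chosen with earlier results of these data known. List members with no probe set in the annotation were not analysed here. Alternatives varied the pseudocount (5.5 and 88), the filter, quantile normalization, the trend, 1 probe set a gene, the block and leaving out each array.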

Additional observations from a re-analysis of the deposited data

How the results depend on the processing

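No subunit probe set passed in any of the 9 comparisons under the 9 alternatives that kept all arrays (smallest adjusted p 0.381) or with 1 array left out (smallest 0.436). Of 1350 alternative values with all arrays, 15 changed sign, where the main value was 0.05 at most in size. Of 1620 with 1 array left out, 202 changed sign, in 106 of 162 values and up to a main value of 0.69 (Gabra2 1443865_at at 18 mg/kg, -0.02 to 1.40). None of these was called in any setting, so their direction is not settled. A fit with the replicate block, also with quantile normalization, called 0 subunit probe sets in each comparison. The count of 6 subunit probe sets that differ by replicate number, added after seeing the data, was 5 to 7 under its alternatives. Over all tested probe sets, the calls in the wild-type response numbered 17 in the reported fit, 4 without the intensity trend, 91 with the block and 3 to 38 with 1 array left out. In A-CREB mice at 14 mg/kg these were 47, 4, 197 and 2 to 61, at 18 mg/kg 19, 2, 97 and 2 to 49, and in the mean response 112, 74, 408 and 56 to 112; the cause was not tested. With 2 arrays a group, intervals of many subunit probe sets reach past 1 on the log2 scale, and 3 dim probe sets gave no test.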
